A study of Mus musculus with 2 samples.

Results

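Hedgehog pathway genes were read on microarrays that compared mouse fetal thymic stromal cells grown as a reaggregate with the same kind of cells grown flat on a dish. The members were Shh, Ihh, Ptch1, Smo, Gli1, Gli2, Gli3 and Hhip, and every non-control probe named for one of them on the array was taken. They numbered 8 of 27670 genes or unnamed transcripts and 15 of 41174 probes. Thymic lobes of C57BL/6 fetuses at E14.5 or E15.5 were first held in organ culture for 8 days (E14.5) or 9 days (E15.5), exposed to deoxyguanosine at 1.35 mM, a compound that removes developing lymphocytes. The lobes of both cultures were then dispersed with enzymes, and the cells were grown for 72 h either in 2D culture on a dish or in reaggregation thymus organ culture (RTOC) on a membrane. RTOC RNA carried Cy5 and 2D RNA carried Cy3 on the same array, so each stage gave 1 ratio of RTOC over 2D, and the 2 arrays were taken as 2 replicates (n = 2 throughout, errors are SD unless named SE).

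Hedgehog ligands such as Shh, Ihh and Dhh bind Ptch1, a membrane receptor that otherwise holds the transducer Smo silent. Released Smo acts in the primary cilium on Gli2 and Gli3, shifting them from repressor to activator forms, and Gli1, Ptch1 and Hhip are themselves activated by the pathway in many tissues. In the third pharyngeal pouch, Shh signalling is known to favour the parathyroid side over the thymus side, and in the fetal thymus Shh of the epithelium is known to act on developing T cells.

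Shh and Gli1 had 1 probe of 60 bases each and the other members had 2 or 3, and probes of the same member did not always give the same answer. The sequences of 3 probes are given because a result turns on them. The first belongs to Smo and had the opposite sign to a brighter Smo probe. The second is the sole Gli1 probe. The third is the Gli2 probe that stayed dim while another Gli2 probe rose.
Smo probe 2: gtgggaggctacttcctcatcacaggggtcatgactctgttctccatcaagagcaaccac
Gli1: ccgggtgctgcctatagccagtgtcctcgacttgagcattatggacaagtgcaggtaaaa
Gli2 probe 2: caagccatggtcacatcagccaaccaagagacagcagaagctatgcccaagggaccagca

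Hhip was the member with the largest ratio, so the 250 bases before its start are also shown. They lie at chr8:80058009-80058258 on the minus strand of GRCm38.p6 in RefSeq's promoter table, and the capitals mark the stretch nearest to the Gli consensus GACCACCCA.
Hhip upstream: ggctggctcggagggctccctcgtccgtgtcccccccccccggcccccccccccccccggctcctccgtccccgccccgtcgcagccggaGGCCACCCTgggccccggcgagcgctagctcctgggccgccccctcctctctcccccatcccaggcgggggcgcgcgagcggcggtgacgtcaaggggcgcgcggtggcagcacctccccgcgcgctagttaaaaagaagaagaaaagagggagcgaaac
That stretch differs from the consensus at 2 bases, and 51.8% of all 32851 promoters hold a match as near on either strand. The table held 6 of the 8 members (Gli2, Gli3, Hhip, Ihh, Ptch1 and Smo). The exact consensus was in 0 of these 6 windows and in 0.225% of all promoters of the same length.

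Detection differed between the members. A probe was taken as well above background in a culture where at least 50% of its spots carried the scanner software's mark for that. Of the 15 member probes, 4 carried that mark in all 4 channels (a channel being 1 culture on 1 array) and 8 in none. The 7 probes with at least 1 culture well above background on each array were tested with limma, and they stand for 5 genes: Ptch1, Hhip, Smo, Gli2 and Gli3. For Shh, Ihh and Gli1 no probe was tested. Over the whole array, 20158 of 41174 probes were well above background in all 4 channels and 23685 were tested. By channel, 53.1% (E14.5) and 53.5% (E15.5) of probes were well above background in 2D, and 56.3% and 60.9% in RTOC.

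**Figure D1:**
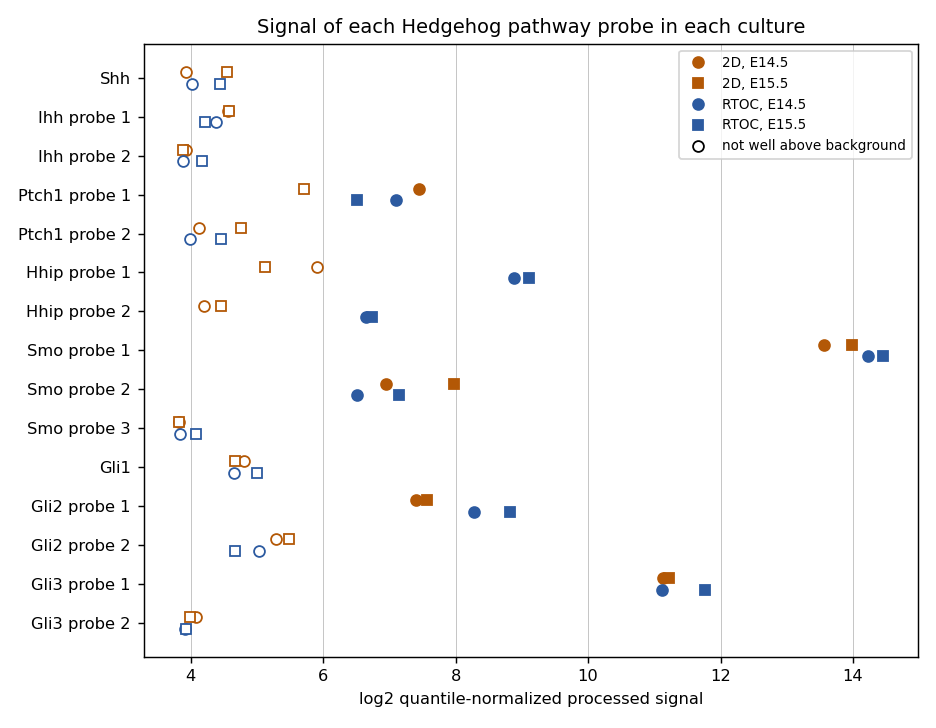
Each row is a member probe, ordered by role, and the x axis is the log2 signal after quantile normalization of the 4 channels. Filled symbols are well above background and open ones are not; 8 of the 15 probes have open symbols throughout, and both Hhip probes are filled in RTOC and open in 2D.

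Among the ligands, Shh, the ligand made by several embryonic signalling centres, was not well above background in either culture. Its 1 probe was printed 10 times on each array. The median spot signal at E14.5 was 17.8 in 2D and 17.3 in RTOC, and at E15.5 it was 15.51 and 12.7. Of 40 spot readings, 2 were well above background, both from a single spot of the E15.5 array that read 290 in 2D and 223 in RTOC. The other 9 spots of that array were not well above background in either colour, so both Shh readings above background came from 1 spot.

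Ihh, the ligand best known from growing cartilage, had a probe printed 10 times and a second printed once. Median spot signals of the first were 22.1 in 2D and 21.4 in RTOC at E14.5, and 18.4 and 13.3 at E15.5. None of its 40 spot readings was well above background, and the second Ihh probe was not well above background in any of the 4 channels. Neither ligand was therefore measured beyond the array's background in either culture.

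Ptch1, the receptor, gave a signal with 1 of its 2 probes. Probe 1 read 7.45 in 2D and 7.09 in RTOC on the log2 signal scale at E14.5, and 5.71 and 6.52 at E15.5, where 2D was at background. Its log2 ratio was -0.35 at E14.5 and 0.81 at E15.5, so the arrays pointed in opposite directions. The mean ratio was 0.23 ± 0.82 (SE 0.35, limma adjusted p = 0.650). Opposite signs on the arrays were seen at 19.98% of all tested probes. Probe 2 of Ptch1, printed 10 times, had 2 of 40 spot readings well above background, again from 1 spot of the E15.5 array (213 in 2D and 183 in RTOC).

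Hhip, a membrane protein that binds Hedgehog ligands and limits their reach, was higher in RTOC with both of its probes. Probe 1 read 5.90 (E14.5) and 5.12 (E15.5) in 2D and 8.89 and 9.11 in RTOC on the log2 scale. The processed signals before quantile normalization were 56.1 and 30.7 in 2D against 487 and 540 in RTOC. No 2D channel was well above background. The log2 ratios were 2.99 and 4.00, with a mean of 3.49 ± 0.72 (SE 0.33, limma adjusted p = 0.00254). Because the 2D side was at background, the difference is given as a bound, and Hhip was at least 1.87-fold higher in RTOC. The means behind it, after normexp, loess and Aquantile, were 6.90 in RTOC and 6.00 in 2D on the log2 scale. That bound equals the log2 ratio after normexp background correction and loess, 0.90, which still passed the threshold (limma adjusted p = 0.0299).

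The second Hhip probe is named for Hhip in the array's design and matches a cDNA clone that the design calls unclassifiable. It read 4.20 and 4.47 in 2D, below the mark for background, and 6.64 and 6.73 in RTOC. Its log2 ratios were 2.44 and 2.27, with a mean of 2.35 ± 0.12 (SE 0.25, limma adjusted p = 0.00339), and the bound was at least 1.12-fold higher in RTOC. After normexp and loess the ratio was 0.34 and did not pass (limma adjusted p = 0.135).

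Smo, the transducer, was detected in all 4 channels with 2 of its 3 probes, and these had opposite signs. Probe 1 read 13.56 and 13.99 in 2D and 14.23 and 14.46 in RTOC. Its log2 ratios of 0.66 and 0.47 had a mean of 0.57 ± 0.14 (SE 0.25, limma adjusted p = 0.146). Probe 2, whose sequence is shown above, read 6.95 and 7.98 in 2D and 6.51 and 7.14 in RTOC. Its log2 ratios of -0.44 and -0.84 had a mean of -0.64 ± 0.28 (SE 0.26, limma adjusted p = 0.124). Neither probe passed the threshold, and probe 3 was not well above background anywhere, so no direction is given for Smo.

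Gli1, a Gli factor whose transcription is widely read as a sign of pathway activity, was at background. Its sole probe, printed 10 times, had median spot signals of 21.3 in 2D and 24.7 in RTOC at E14.5, and of 23.3 and 33.9 at E15.5. Of 40 spot readings 3 were well above background. At E15.5 the 10 RTOC spots lay between 25.9 and 56.8 and the 10 2D spots between 15.3 and 52.0. Both cultures were read on the same spots, and at E15.5 all but spot 9 (52.0 in 2D and 33.7 in RTOC) read higher in RTOC. At E14.5 the spots went both ways. Spots of 1 probe are not replicates of a culture, and the difference was not tested. The log2 ratios of the averaged spots were -0.16 and 0.33.

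**Figure D2:**
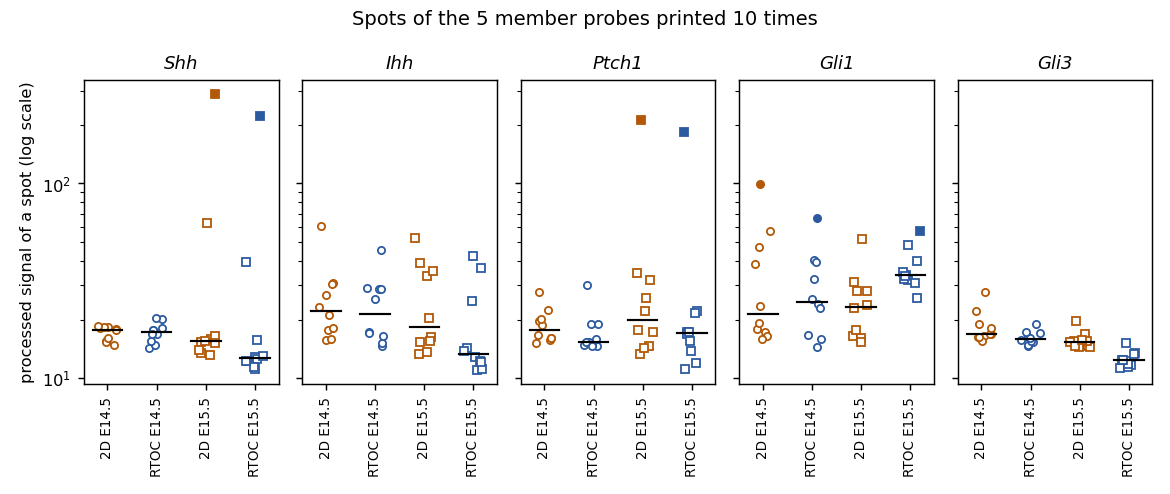
Processed signal of every spot (log axis) of the 5 member probes printed 10 times, by culture and array. Filled symbols are well above background and bars are medians; the filled spots of Shh and Ptch1 are 1 spot each, bright in both cultures of the E15.5 array, and Ihh and Gli3 have none.

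Gli2, the main activator downstream of Smo, was higher in RTOC with the probe that could be measured. Probe 1 read 7.41 and 7.57 in 2D and 8.27 and 8.82 in RTOC. The log2 ratios of 0.87 and 1.25 had a mean of 1.06 ± 0.27, a 2.08-fold difference (SE 0.26, limma adjusted p = 0.0350). After normexp and loess the ratio was 0.40 and no longer passed the threshold (limma adjusted p = 0.114), nor did it with no replicate block (adjusted p = 0.0707). Probe 2, shown above, was not well above background in any channel, with log2 ratios of -0.26 and -0.82, and was not tested.

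Gli3, which acts mostly as a repressor where ligand is absent, was bright with 1 probe and at background with the other. Probe 1, which carries the name Gli3 in the design only and matches an unclassifiable clone, read 11.14 and 11.22 in 2D and 11.12 and 11.76 in RTOC. Its log2 ratios were -0.01 and 0.54, with a mean of 0.26 ± 0.39 (SE 0.28, limma adjusted p = 0.506). Probe 2 stands for the RefSeq transcript of Gli3 and was printed 10 times, and 0 of its 40 spot readings were well above background, with medians from 12.4 to 16.9. The Gli3 level in these cells therefore depends on which probe is read.

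**Figure D3:**
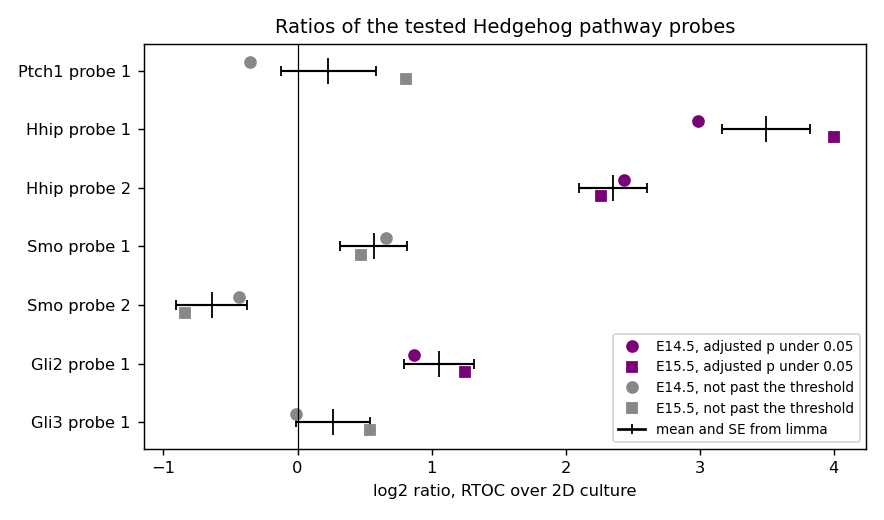
Log2 ratio of RTOC over 2D culture for the 7 tested member probes, with a symbol for each array and the mean with its SE from limma. Purple marks an adjusted p under 0.05, which both Hhip probes and Gli2 probe 1 reached; both Hhip ratios are measured against a 2D signal at background, and the Smo probes lie on opposite sides of 0.

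In all, 3 of the 7 tested member probes passed the threshold, all higher in RTOC, where 28.9% of the 23685 tested probes passed it (15.3% higher and 13.6% lower). With the brightest probe of each gene, 2 of 5 members (Hhip and Gli2) passed, beside 28.8% of 16128 genes (16.7% higher and 12.1% lower). Both Hhip probes met the condition for testing through RTOC alone, so their direction was favoured by that condition and the counts are no support for a direction. With all 4 channels required to be well above background, 1 member (Gli2) was called. A likeness to Ptch1 or Gli1 was not looked for, because neither was well above background in all 4 channels.

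The arrays measure RNA from whole cultures, so fewer cells of a type and less RNA per cell cannot be told apart. The labelled thymic stroma was present in both cultures, with 12 of 12 thymic epithelial markers and 12 of 12 fibroblast markers well above background in each. Cell type markers moved with the comparison. Summed normalized signal of the epithelial markers was 316221 and 658643 in 2D (E14.5 and E15.5) and 1117309 and 1106785 in RTOC, with 7 of 12 genes higher and 2 lower. Fibroblast markers summed to 591339 and 450034 in 2D and 311111 and 328186 in RTOC (3 of 12 higher, 6 lower), and smooth muscle markers to 601858 and 512023 against 66959 and 41949 (1 of 6 higher, 4 lower). Endothelial markers summed to 1543 and 635 against 6421 and 9970 (4 of 5 higher), where 2 of 6 were well above background on both arrays in 2D and Cdh5, Pecam1, Tek and Tie1 on neither. Haematopoietic markers summed to 10812 and 9643 against 45737 and 51010 (4 of 8 higher). The part of these changes in the Hhip and Gli2 ratios was not tested.

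The other genes that release or receive the ligand moved in both directions. Of 13 such genes 8 were tested, and 2 were higher and 1 lower in RTOC (37.5% called, beside 28.8% of all genes), with a median log2 ratio of 0.47. The lower gene was Dhh, described below. It met the condition for testing through 2D alone, so its direction was favoured by that condition. Gas1, a co-receptor that helps ligand reach Ptch1, had log2 ratios of 1.88 and 1.93 and a mean of 1.91 ± 0.03 (limma adjusted p = 0.00559). Boc, another co-receptor, had ratios of 0.82 and 1.03 and a mean of 0.93 ± 0.15 (limma adjusted p = 0.0455), while 2 further Boc probes were not well above background in any channel. Boc did not pass with no replicate block (limma adjusted p = 0.138) or with trend and robust fitting (adjusted p = 0.0734). Cdon, the co-receptor related to Boc, was not tested and had ratios of -0.29 and -0.94.

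Dhh, the third ligand of the family, was the pathway gene that was lower. It was well above background in 2D on both arrays and in RTOC on neither, with log2 ratios of -3.44 and -2.83 and a mean of -3.13 ± 0.43 (limma adjusted p = 0.00232). As a bound it was at least 1.60-fold lower in RTOC. That bound equals the log2 ratio after normexp and loess, -0.68, which did not pass the threshold (limma adjusted p = 0.148). Among the 3 ligands, Dhh was thus the one above background, in 2D culture.

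Genes that carry the signal from Smo to the Gli factors were all detected, and most did not pass the threshold. Of 22 genes, 3 were higher and 0 lower (13.6% called, beside 28.8% of all genes), with a median log2 ratio of -0.15. Those 3 were Arrb2, a beta-arrestin (1.06 ± 0.28, limma adjusted p = 0.0346), Efcab7 (1.01 ± 0.43, adjusted p = 0.0472) and Evc (1.01 ± 0.44, adjusted p = 0.0481), of which Efcab7 and Evc act together on Smo in the cilium. Each lies close to the threshold, and 1 of the 22 passed after normexp and loess. Sufu, the inhibitor that holds Gli proteins in the cytoplasm, had ratios of -0.12 and 0.24 (mean 0.06 ± 0.26, limma adjusted p = 0.889). A second tested Sufu probe had -1.14 and -0.35 (mean -0.74 ± 0.55, limma adjusted p = 0.118), and a further probe was well above background in no channel. Kif7, the ciliary kinesin that organizes Gli proteins, had ratios of -0.99 and -0.43 (mean -0.71 ± 0.40, limma adjusted p = 0.109).

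Genes of the primary cilium, the organelle in which the pathway runs, had a median log2 ratio of 0.53, against 0.05 over all genes. Of the 22 listed genes 21 were found on the array and 20 were tested. Both arrays were above 0 for 15 of the 20, beside 6794 of all 16128 genes. Past the threshold 4 were higher (20%) and 0 lower, beside 16.7% higher and 12.1% lower of all genes. Iqcb1, a ciliary base protein, had a mean ratio of 1.61 ± 0.47 (limma adjusted p = 0.0138). Dync2h1, the motor that returns cargo to the base, had 1.44 ± 0.10 (adjusted p = 0.0130), and Ift172, an intraflagellar transport subunit, had ratios of 0.93 and 1.08 (adjusted p = 0.0360). For Ift172, 2 further probes measured in all 4 channels did not pass (0.54, limma adjusted p = 0.189, and 0.52, adjusted p = 0.170), and the median over its probes was 0.63 (adjusted p = 0.125). The fourth was Tulp3, an adaptor for receptors entering the cilium, at 0.89 ± 0.06 (adjusted p = 0.0481), which was named after its value was seen.

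**Figure D4:**
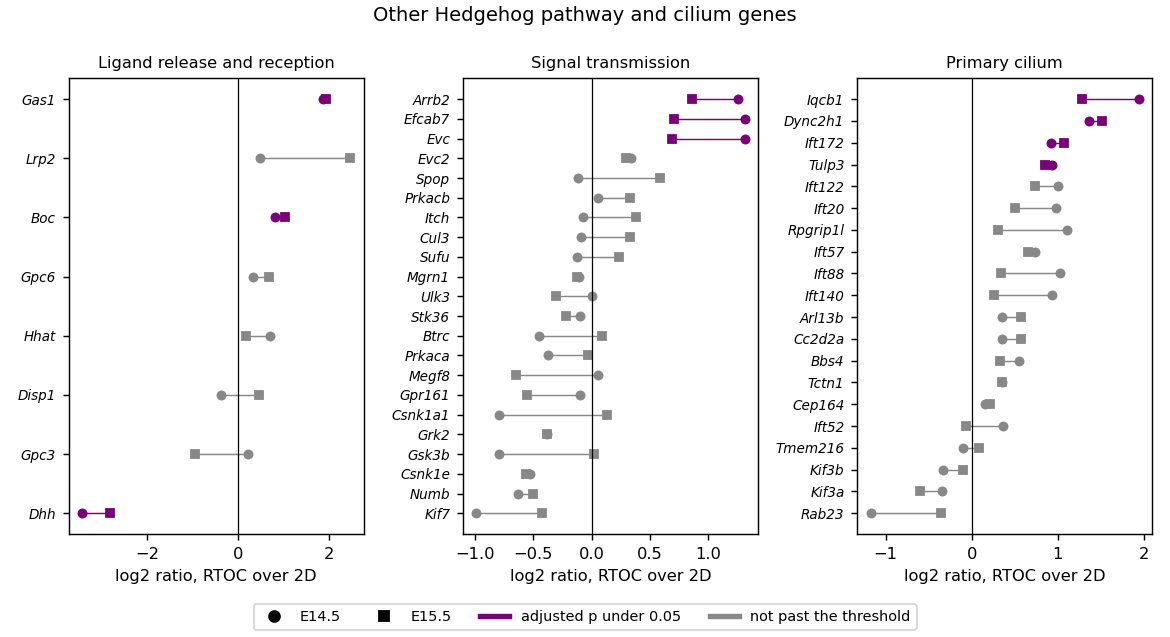
Log2 ratio of RTOC over 2D on each array (circle E14.5, square E15.5) for the tested genes of 3 lists, with a line joining the arrays of a gene. Purple genes have an adjusted p under 0.05: 3 of 8, 3 of 22 and 4 of 20; the Dhh ratio is measured against an RTOC signal at background.

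Among genes described as Hedgehog or Gli targets in other tissues, more were lower in RTOC than higher. Of 30 genes 25 were tested, and 3 were higher and 12 lower (60.0% called, beside 28.8% of all genes), with a median log2 ratio of -1.16. After normexp and loess 7 of the 25 passed. Among those measured in all 4 channels, the lowest were Foxc2, a mesenchymal forkhead factor (-3.18 ± 0.43, limma adjusted p = 0.00227), Ccnd1, the gene of cyclin D1 (-2.80 ± 0.26, adjusted p = 0.00248), and Igfbp6, which binds insulin-like growth factors (-2.41 ± 0.01, adjusted p = 0.00305). The higher ones were Jag2, a Notch ligand (1.91 ± 0.21, limma adjusted p = 0.00611), Sfrp1, a secreted Wnt inhibitor (1.68 ± 1.28, adjusted p = 0.0447), and Bcl2, which blocks cell death (1.62 ± 0.43, adjusted p = 0.0129). Sfrp1 differed widely between the arrays, with 0.78 at E14.5 and 2.59 at E15.5. A second Sfrp1 probe had 0.15 and 2.87 (limma adjusted p = 0.126), and Sfrp1 passed in 5 of 13 fits.

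Foxf2, a forkhead factor of mesenchyme near Hedgehog sources, had the lowest ratio of the tested targets. Foxf2, Wnt5a and Hand2 were not picked by the naming rule and were added after their values were seen. Foxf2 had ratios of -4.85 and -4.87 (limma adjusted p = 0.00155) and was well above background in RTOC on 1 of the 2 arrays. Wnt5a had a log2 ratio of -3.09 (limma adjusted p = 0.00203) and Hand2 of -1.92 (limma adjusted p = 0.00779), both not well above background in RTOC. Given as bounds, Wnt5a was at least 1.46-fold and Hand2 at least 1.23-fold lower. These p-values belong to the quantile-normalized ratios and not to the bounds. Wnt5a and Hand2 met the condition for testing through 2D alone, which favoured their direction in the count of lower targets. Many of these targets are also active in fibroblasts and smooth muscle, whose summed marker signals were lower in RTOC as given above, and the part of those cells in the target ratios was not tested.

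Genes of the third pouch and the parathyroid were higher in RTOC. Of 11 genes 9 were tested, and 6 were higher and 0 lower (66.7% called, beside 28.8% of all genes), with a median log2 ratio of 1.76. Pth, the parathyroid hormone, had log2 ratios of 5.21 and 5.02 and a mean of 5.12 ± 0.13 (limma adjusted p = 0.00155). Pax1, a pouch transcription factor, had a mean of 2.66 ± 0.06 (adjusted p = 0.00254), with 0.98 (adjusted p = 0.0606) from a second probe. Foxn1, the master factor of thymic epithelium, had 2.66 ± 0.03 (limma adjusted p = 0.00253) and is also one of the epithelial markers above. Gcm2, the factor that defines the parathyroid, was not well above background in any channel. Tbx1, a pouch factor reported to respond to Shh, had ratios of 0.55 and 1.35 (mean 0.95 ± 0.57, limma adjusted p = 0.0671).

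**Figure D5:**
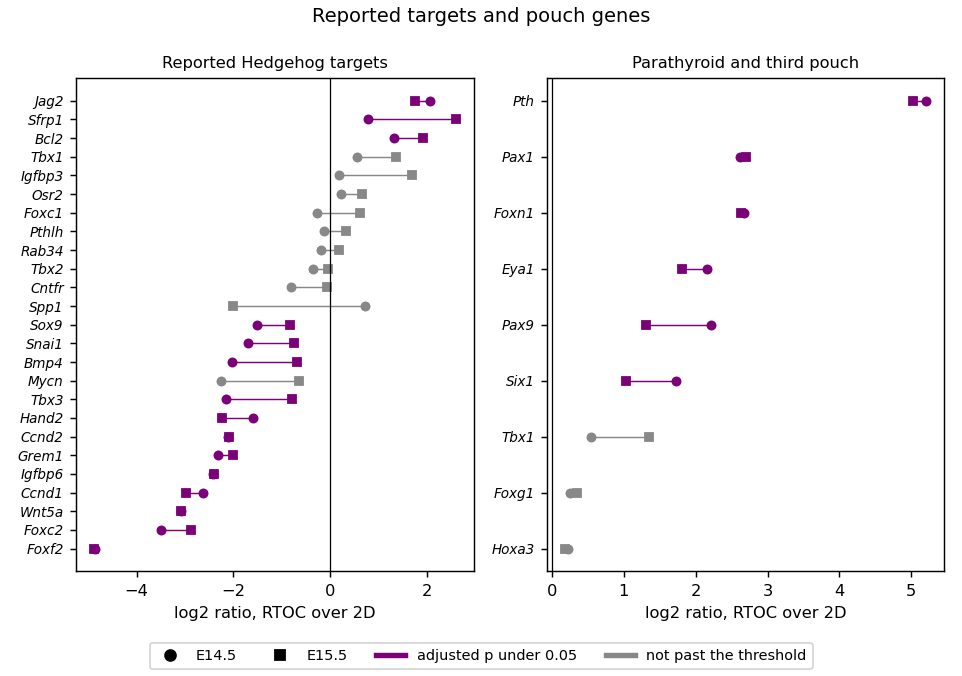
Log2 ratio of RTOC over 2D on each array (circle E14.5, square E15.5) for 25 reported Hedgehog targets and 9 genes of the parathyroid and pharyngeal pouch. Purple genes have an adjusted p under 0.05; 12 targets lie below 0 and 3 above it past the threshold, while the 6 pouch genes past it all lie above 0, and Wnt5a and Hand2 are measured against an RTOC signal at background.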

How the data were processed

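The authors hybridized RTOC RNA (Cy5) and 2D RNA (Cy3) to 2 Agilent arrays and ran Feature Extraction, given as version 11.5.1.1 in the submitters' processing notes and 9.1.3.1 in the file headers. The deposited files hold mean, background and processed signals as intensities, and a log10 ratio that was set to 0 at 22.6% (E14.5) and 21.8% (E15.5) of spots. The deposited series table holds log10 of Cy5 over Cy3 processed signals. The methods state quantile normalization and no test for the arrays. The labels name TRIzol for the extraction while the methods name a column kit. The dyes had the same orientation on both arrays, which shared a slide and a scan. The array, the stage and the days in organ culture go together and cannot be told apart.

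Control and outlier spots (5 and 1) were left out, the 4 channels of processed signals were quantile normalized, and log2 of Cy5 over Cy3 was averaged over the spots of a probe. The 41174 probes were named through RefSeq tables of GRCm38.p6 (22951 by accession, 6659 by symbol, 3109 by older symbol), and 8455 kept the file's name. Probes with at least 1 culture well above background on each array (23685) were tested against 0, two-sided, with limma 3.58.1 in R 4.3.3 and Benjamini-Hochberg adjustment over all of them, at a threshold of 0.05. There was 1 residual degree of freedom, so p-values rest mainly on the spread shared over probes (prior degrees of freedom 4.54), and nothing says that the 2 cultures of a stage came from separate animals. Ratios correlated between the arrays with Pearson r of 0.83 across probes, which are not independent replicates. A gene was represented by its brightest probe. Where both arrays left a probe at background in the same culture, the change is given as at least N-fold, from normexp, loess and Aquantile values, with dye bias not balanced by a swap. Such a bound is a difference of means with no error attached, so it is not a confidence limit. The number of arrays limits the precision. The limma fit and its adjustment were tested on simulated log ratios. Normalization, the filter on dim probes, the choice of probe and the bounds were not simulated.

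Named genes were all members with every probe, the 3 highest and 3 lowest genes of each list that passed the threshold and were measured in all 4 channels, and Dhh, Boc, Cdon, Gas1, Sufu, Kif7, Tbx1, Gcm2 and Pth. A gene of the ligand release and reception list is not reported here and was left out of its counts. The members and lists were chosen with earlier results of these data known.

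Alternatives were normexp (offset 50) with loess, Aquantile or median centring, processed signals centred on the median, the deposited ratio, other filters on dim probes, outliers kept, each array alone, no replicate block, the methods' t-test, the median over probes, and eBayes with trend and robust options.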

Additional observations from a re-analysis of the deposited data

Results flagged for a closer look

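Among the tested probes of members and named genes, 3 had log2 ratios of opposite sign on the 2 arrays, which carry different stages, and the differences were not tested. Ptch1 probe 1 had -0.35 at E14.5 and 0.81 at E15.5. Gli3 probe 1 had -0.015 and 0.54. Sufu, by its brightest probe, had -0.12 and 0.24. The untested probes of Gli1 and Shh, at background, are not counted here. Of all tested probes 19.98% had opposite signs.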

How the results depend on the processing

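The counts of calls depended on the background correction and the test. Over all probes 6855 passed the threshold, against 3716 with normexp and loess (with or without Aquantile), 2904 with normexp and median centring, 4051 with no replicate block, 4 with the methods' t-test (3540 at an unadjusted p under the threshold) and 0 with limma and no filter on dim probes (10661 unadjusted). Of the members 2 were called, against 1 with the 3 normexp settings, with all 4 channels well above background, with no replicate block and with trend and robust fitting, and 0 with no filter or the t-test. Ligand release and reception gave 3 calls, and 1 with normexp and median centring or no replicate block. Signal transmission gave 3, and 1 with the 3 normexp settings or the median over the probes of a gene, and 0 with no replicate block or trend and robust fitting. The cilium list gave 4, and 5 with normexp and loess (with or without Aquantile), centred processed signals or all 4 channels well above background, 6 with normexp and median centring, and 2 with no replicate block, trend and robust fitting, or the median over probes. The reported targets gave 15, and 7 with normexp and loess (with or without Aquantile), 6 with normexp and median centring, and 6 with no replicate block. With no filter or the t-test each of these lists and the 6 pouch genes gave 0.

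Hhip probe 1 passed the threshold in 10 of 12 fits (log2 ratio 0.90 to 3.77, limma or t-test adjusted p from 9.61e-05 to 0.356), Hhip probe 2 in 6 of 11, Gli2 probe 1 in 6 of 13 (0.40 to 1.22, adjusted p from 0.0147 to 0.364) and Dhh in 6 of 12. Signs that changed, none of them called, were Ptch1 probe 1 at -0.017 with normexp and loess (with or without Aquantile) and, with the median over probes, Smo at -0.036 and Sufu at -0.34. Processed signals centred on the median moved the median of all tested probes from -0.01 to 0.15, and normexp with median centring moved it to 0.12; the share of calls that were higher went from 52.9% to 65.1% and 76.4%, and to 41.1% with trend and robust fitting. The cause of these changes was not tested. Single arrays give values with no test, and the signs they change are Ptch1 probe 1, Gli3 probe 1 and Sufu.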
